A study of Mus musculus with 9 samples.

Results

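The genes described here differed from control in the same direction with both cytokines in bone marrow (BM)-derived Mϕs (macrophages) of C57BL/6 mice. Below they are called the shared response, which names the rule given next and not a tested response. A gene was taken when all 6 cytokine-treated libraries lay on the same side of all 3 control libraries, when the IL-4 mean and the IL-6 mean were each at least 2-fold from the control mean in that direction, and when the mean over the 9 libraries reached 0.5 FPKM (fragment counts scaled by transcript length and by library depth). Of 12824 genes that reached this level, 262 met the rule: 128 were higher with both cytokines (0.998% of the genes) and 134 were lower (1.04%). The differences from control therefore chose the genes, and they are given as a description with no test. For the mean of both cytokines against control, limma called 238 of the 262 at an adjusted p under 0.05 and at least 2-fold, beside 5.68% of all genes tested. With each cytokine set against control alone, 153 of the 262 were called in both contrasts in the same direction. Nothing is read from either count, since the rule used the same values. The contrast of IL-6 to IL-4 was not itself a condition of the rule and was tested. The rule used the same IL-4 and IL-6 values, so the share called among the 262 is not independent of the choice.

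Marrow cells of 3 mice were grown with 10 ng/ml M-CSF, the growth factor that turns marrow precursors into Mϕs, for 3 days. They were then kept for 4 more days with M-CSF alone (Control), with 10 ng/ml IL-4 added, or with 100 ng/ml IL-6 added, and 3 libraries were made for each condition. These doses and times are those of the labels, whose treatment text writes the IL-4 group once as IL-5. The methods of the study name 100 ng/ml for either cytokine, and its legends give another dose for both and a shorter treatment. The libraries hold 29988160 to 39909571 fragments. Because doses and times are given differently, the sizes of the 2 responses cannot be set against each other per dose.

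IL-4 acts through its receptor and the transcription factor Stat6 and is the standard inducer of the M2 programme in cultured Mϕs, with Arg1 and Retnla as its best-known targets. IL-6 acts through gp130 and mainly through Stat3. Both factors bind DNA sites built from TTC and GAA, with 3 bases between them at the usual Stat site and 4 bases at the site that Stat6 prefers.

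The libraries fell into 2 sets that cut across the groups. The summed FPKM of 16 intestinal secretory genes, which Mϕs are not known to use, was 41.1, 53.4 and 43.4 in the controls and 36.2 in IL-4 #1 (numbers are those of the labels), but 0.0139 to 0.1745 in IL-4 #2, IL-4 #3 and the 3 IL-6 libraries. Skeletal muscle transcripts moved the other way: of 17 markers, 10 were higher in each of those 5 libraries than in any control or IL-4 #1, among them Mylpf (2.21 to 5.48 against 0.378 to 0.778 FPKM) and Myl1 (0.675 to 1.27 against 0). Tnni2, also on the muscle list, is one of the lower genes, and it was low in IL-4 #1 too (0.879 FPKM, with 4.34 to 6.97 in the controls). The IL-6 response and the set therefore cannot be told apart. Only IL-4 #1 can be compared with control within a set, and the IL-6 libraries share theirs with IL-4 #2 and #3. In IL-4 #1 alone, 113 of the 128 higher genes were at least 2-fold above the control mean, and 94 of the 134 lower genes at least 2-fold below it. Not counted were 2 genes with controls at 0 that had 3 fragments or fewer there. The rule used IL-4 #1 too, so these counts and the IL-4 #1 values given below are partly set by the choice. The share over all genes tested was not counted, and nothing is read from these counts. IL-4 #3 also stood apart in scale, with a median-ratio factor of 0.766 against 0.99 to 1.07 in the other libraries. Its departure was not the same for all genes. In IL-4 #1, #2 and #3, Tlr8 read 87.1, 65.2 and 2.28 FPKM, while Cd74 read 4402, 4130 and 8732. The cause was not tested. No gene of the 12-gene Mϕ marker list was among the 262, but many differed from control. The summed level of the list, most of it Lyz2, was 16918 to 19204 FPKM in the controls, 6532 to 7374 under IL-4 and 20739 to 21797 under IL-6. Adgre1, the F4/80 antigen, read 393 to 523 in the controls, 106 to 254 under IL-4 and 383 to 427 under IL-6, and Cd14 was at 109 to 141, 14.98 to 34.05 and 288 to 316. Spi1, the factor that specifies myeloid cells, stood between 100.4 and 134 FPKM in all 9 libraries.

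**Figure D1:**
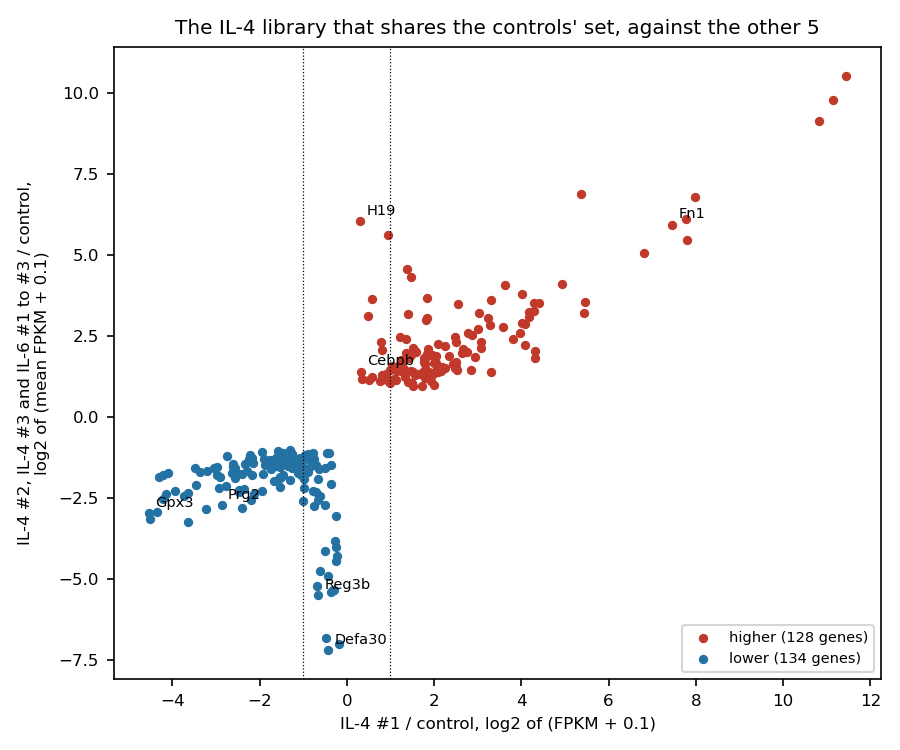
Each point is 1 of the 262 genes; the x axis is IL-4 #1 over the control mean and the y axis the mean of the other 5 treated libraries over the control mean, both as log2 of (FPKM + 0.1), and dotted vertical lines mark 2-fold. Most points lie beyond the dotted lines, while the column of lower genes near 0 on the x axis, with Defa30 and Reg3b, holds genes near the control level in IL-4 #1 and near 0 in the other 5 libraries.

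The 40 lower genes that fell short of 2-fold in IL-4 #1 included 8 of the 9 lower genes that stand on the intestinal list, all but Lyz1. Defa30, a Paneth cell defensin, read 12.6, 16.9 and 14.8 FPKM in the controls, 11.0 in IL-4 #1 and was listed at 0 in the remaining 5 treated libraries. Reg3b, an intestinal antimicrobial lectin, read 3.76, 5.26 and 4.42 in the controls, 2.82 in IL-4 #1 and again 0 in the other 5. In all, 11 lower genes were at 0 in those 5 libraries, and in each of them IL-4 #1 was within 2-fold of the control mean. Lower genes of Mϕs that also missed 2-fold in IL-4 #1 were Entpd1, Siglec1 and Havcr2, which stood at 0.703, 0.577 and 0.534 of the control mean there. On the higher side, H19, an imprinted non-coding RNA, had no fragment in any control, 2 fragments in IL-4 #1 and between 406 and 737 in the remaining 5, which are the libraries with the higher muscle transcripts. The part of the library set in these values was not tested. Cebpb, at 1.24 times the control mean in IL-4 #1, was the most abundant higher gene after Pla2g7 (1.76 times) to miss 2-fold there.

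The higher genes were mostly protein-coding (118 of 128, 92.2%, against 84.3% of all genes tested). The lower genes held fewer (93 of 134, 69.4%) and more pseudogenes (20, 14.9%, against 5.82% of all). Levels were modest: 53 higher and 35 lower genes had a mean of at least 5 FPKM, against 51.1% of all genes. The median change of the higher genes, as log2 of (mean FPKM + 0.1), was 1.94 under IL-4 and 1.39 under IL-6, beside -0.15 and -0.01 over all genes tested. For the lower genes it was -1.81 and -1.51. Changes of at least 5-fold with both cytokines were found in 22 higher and 10 lower genes. The 22 include 4 genes with all controls at 0, counted although no fold is defined for them, and some of these rest on a few fragments with 1 cytokine.

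**Figure D2:**
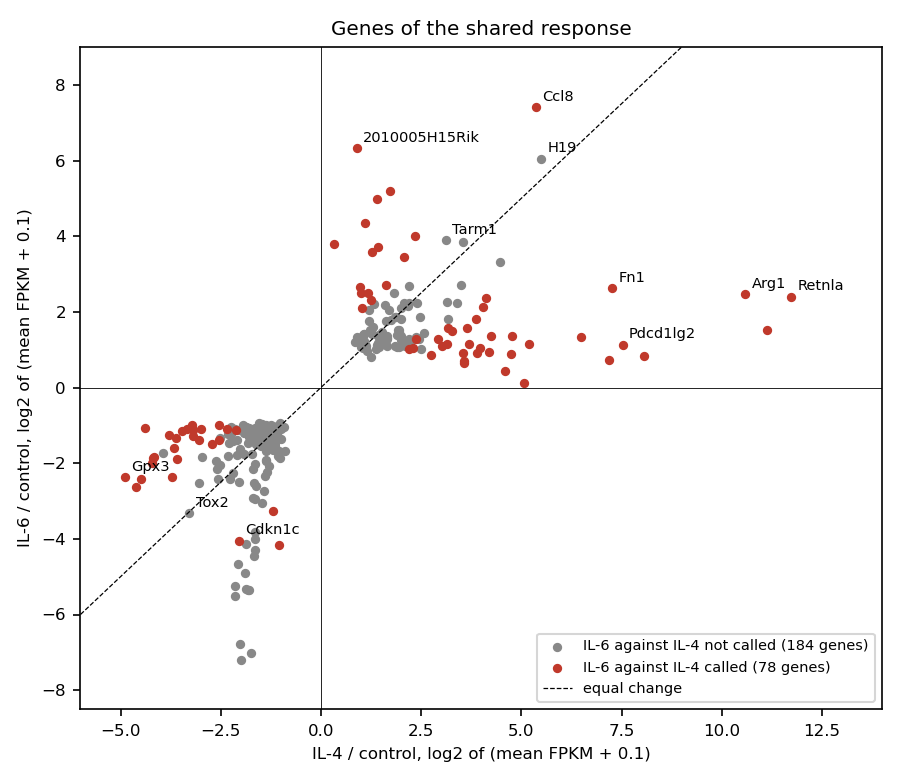
Each point is 1 of the 262 genes, with its IL-4 mean (x) and IL-6 mean (y) over the control mean as log2 of (mean FPKM + 0.1). Red marks the 78 genes called different between the cytokines and the dashed line marks equal change; Retnla and Arg1 lie far to the right, Ccl8 and 2010005H15Rik high up, and Tox2 and Tarm1 near the line.

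Among the chemokines, which draw leukocytes to tissue, Ccl8, Ccl12 and Ccl7 were higher with both cytokines, and the 3 genes lie within 100 kb of one another on chromosome 11. Ccl8 read 0.0561, 0.326 and 0.948 FPKM in the controls, 22.2, 21.7 and 23.2 under IL-4, and 55.4, 123 and 97.6 under IL-6. Every treated library was more than 20 FPKM above every control. The means were 50.4-fold and 208-fold above control, and IL-6 exceeded IL-4 by 1.96 ± 0.61 on the log2 scale (SE, n = 3 each, limma adjusted p = 0.039), a call that was lost in 11 of the other settings tried. Ccl12 favoured IL-6, with 15.5 to 20.2 FPKM against 3.43 to 3.50 under IL-4 and 0.533 to 1.68 in the controls (IL-6 minus IL-4 2.29 ± 0.35, limma adjusted p = 0.0017). Ccl7 went the other way, with 90.6 to 135 FPKM under IL-4, 12.8 to 17.6 under IL-6 and 5.26 to 8.97 in the controls (-2.93 ± 0.24, limma adjusted p = 5.8e-05). So 3 neighbouring genes were all above control but ordered differently by the 2 cytokines. In IL-4 #1, within the controls' set, Ccl8, Ccl7 and Ccl12 were 50.1-fold, 17.3-fold and 2.79-fold above control.

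Of the chemokine receptors, Ccr1, which binds inflammatory CC chemokines, was higher, with means of 33.8 ± 4.44 in the controls, 106 ± 25.7 under IL-4 and 83.7 ± 7.48 under IL-6 (SD, n = 3 each, as for all means given with ±). It was not called different between the cytokines. Cxcr3, the receptor for interferon-induced CXC chemokines, was lower: 6.17, 5.18 and 3.98 FPKM in the controls, 0.275 to 0.438 under IL-4 and 2.02 to 2.35 under IL-6, and here the cytokines differed (2.32 ± 0.22, limma adjusted p = 0.00011).

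Well-known IL-4 targets stood among the higher genes, at far lower levels under IL-6. Retnla, a secreted resistin-like protein, read 3.93, 6.36 and 3.38 FPKM in the controls, 19.7, 26.1 and 27.9 under IL-6, and 13044, 10230 and 24325 under IL-4. Arg1, which splits arginine into urea and ornithine, read 0.604, 0.718 and 0.409 in the controls, 2.06, 3.48 and 5.33 under IL-6 and 1227, 1176 and 730.3 under IL-4. Pdcd1lg2, the PD-1 ligand PD-L2, read 0.366, 0.243 and 0.381 in the controls, 0.715, 1.08 and 0.732 under IL-6 and 93.6, 80.5 and 64.7 under IL-4. Each was thus higher under IL-6 than in any control, yet far below its IL-4 level. In 6 of the higher genes, Retnla, Rnase2a, Arg1, Gzma, Gzmb and Kcnd3, the IL-6 mean was under 1% of the IL-4 mean. Of the 24 tested genes of an IL-4-responsive list, 5 met the rule, all higher: Retnla, Arg1, Pdcd1lg2, Klf4 and Flt1. Flt1, a receptor for VEGF, was named after its values were seen. By the rule, 0.998% of all genes tested were higher and 1.04% lower. This list and the gene lists below were written with earlier results of these data known, so nothing is read from their counts.

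Promoter sequence is shown for Retnla and Pdcd1lg2, which hold the site with 4 bases between its parts, the letters associated with Stat6. Sequences are from RefSeq (GRCm38.p6), lie outside the gene as GENCODE M21 places it and read 5′ to 3′ on the gene's strand, with the match to TTCNNNNGAA in capitals. A start from the promoter table was found for 89 higher and 72 lower genes. The first lies at chr16:48842359-48842550 (plus strand), the second at chr19:29410669-29410918 (plus strand).
Retnla: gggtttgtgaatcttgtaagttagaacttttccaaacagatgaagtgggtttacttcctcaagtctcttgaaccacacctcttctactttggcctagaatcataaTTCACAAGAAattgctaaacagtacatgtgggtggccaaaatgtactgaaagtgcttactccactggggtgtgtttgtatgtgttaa
Pdcd1lg2: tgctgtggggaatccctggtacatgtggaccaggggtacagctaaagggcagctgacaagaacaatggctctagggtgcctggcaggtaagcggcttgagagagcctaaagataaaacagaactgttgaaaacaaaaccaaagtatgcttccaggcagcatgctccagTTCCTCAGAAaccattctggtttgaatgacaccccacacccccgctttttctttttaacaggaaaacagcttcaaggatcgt

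Shorter stretches follow for 2 higher genes whose IL-4 and IL-6 libraries overlapped, Apol7c and Slamf1, a receptor of leukocytes (4.48-fold under IL-4, 4.57-fold under IL-6), to show the same letters there. They lie at chr15:77533368-77533397 (minus strand) and chr1:171766974-171767003 (plus strand).
Apol7c: tggtggtgagTTCCTTAGAAatggggcttt
Slamf1: tgactttggcTTCTCAAGAAcaatgaagtg

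The site TTCNNNNGAA, which reads the same on both strands, was in the 250 bases before the start of 11 of 89 higher genes (12.4%), 2 of 72 lower genes (2.78%) and 519 of 9016 tested genes (5.76%), and in 5.85% of all 32851 promoters. The form with 3 bases, TTCNNNGAA, was in 9 higher (10.1%) and 6 lower genes (8.33%), against 7.10% of tested genes. Of the other letters searched on both strands, TGANTCA (AP-1) was in 6.74% of higher and 5.56% of lower genes (5.48% of tested genes), TTGCNNAAT (C/EBP) in 2.25% and 1.39% (1.85%), and CCAAT in 38.2% and 41.7% (40.4%). ACGTG, the core of the hypoxia element, was in 27% of higher and 13.9% of lower genes (25.4%), and CACGTG, which contains it, in 12.4% and 8.33% (10.2%). These are descriptions of letters, with no test.

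Of the adhesion list, 4 of 27 tested genes were higher (0.998% of all genes tested): Fn1, Sdc4, Itgb7 and Itga1. Fn1, the matrix protein fibronectin, read 1.25, 0.873 and 1.12 FPKM in the controls, 207, 255 and 85.9 under IL-4 and 6.65, 6.65 and 8.37 under IL-6, so that the 3 groups did not overlap (IL-6 minus IL-4 -4.51 ± 0.37, limma adjusted p = 5.8e-05). Itga1, an integrin chain for collagen, was ordered the other way, with 0.102 to 0.483 under IL-4 and 1.65 to 2.03 under IL-6 above 0.049 to 0.1 in the controls (2.43 ± 0.41, limma adjusted p = 0.0026). Sdc4, a heparan sulfate proteoglycan, and Itgb7, an integrin chain of leukocytes, were not called different between the cytokines. Sdc4 went from 24.6 ± 2.5 to 51.5 ± 9.68 under IL-4 and 65.1 ± 1.57 under IL-6, and Itgb7 from 5.56 ± 0.141 to 14.7 ± 6.53 and 12.3 ± 0.181. Timp1, an inhibitor of metalloproteinases, was 6.04-fold higher under IL-4 and 5.43-fold under IL-6 than its control mean of 0.533 ± 0.256 FPKM. Cav1, the main protein of caveolae, read 0.0083 to 0.0582 FPKM in the controls, 1.65, 4.37 and 3.01 under IL-4 and 1.21, 1.48 and 1.27 under IL-6.

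Tarm1, an activating receptor of myeloid cells, read 0.943, 0.904 and 0.883 FPKM in the controls, 9.90, 7.99 and 8.04 under IL-4 and 16.8, 13.6 and 14.2 under IL-6. The 2 cytokines did not overlap, but their difference of 0.78 ± 0.14 on the log2 scale stayed under the 2-fold that a call required (limma adjusted p = 0.004). Apol7c, an apolipoprotein L family gene, read 0.530 to 0.832 in the controls, 15.4, 6.68 and 3.20 under IL-4 and 9.03, 8.85 and 13.7 under IL-6. H2-M2, a non-classical MHC class I gene, read 0.408 to 0.573 in the controls, 9.92, 7.49 and 3.05 under IL-4 and 5.90, 2.55 and 3.46 under IL-6. For these last 2 genes the cytokines overlapped.

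The TNF receptor superfamily, with 16 genes tested, held 3 higher genes, beside 0.998% of all genes tested. They were the co-stimulatory receptor Cd40, through which T cells activate Mϕs, and the neighbouring genes Tnfrsf26 and Tnfrsf23. Cd40 read 2.4, 2.23 and 2.62 FPKM in the controls, 5.21, 3.98 and 6.33 under IL-4 and 6.60, 4.94 and 5.83 under IL-6. As the rule requires of every higher gene, all treated libraries were above all controls, with means 2.14-fold up under IL-4 and 2.4-fold under IL-6. The cytokines overlapped, with a difference of 0.17 ± 0.19 (limma adjusted p = 0.49). In IL-4 #1, within the controls' set, Cd40 was 2.16-fold above control. Tnfrsf26 was higher by 3.75-fold and 2.21-fold, and Tnfrsf23 2.32-fold and 2.04-fold.

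**Figure D3:**
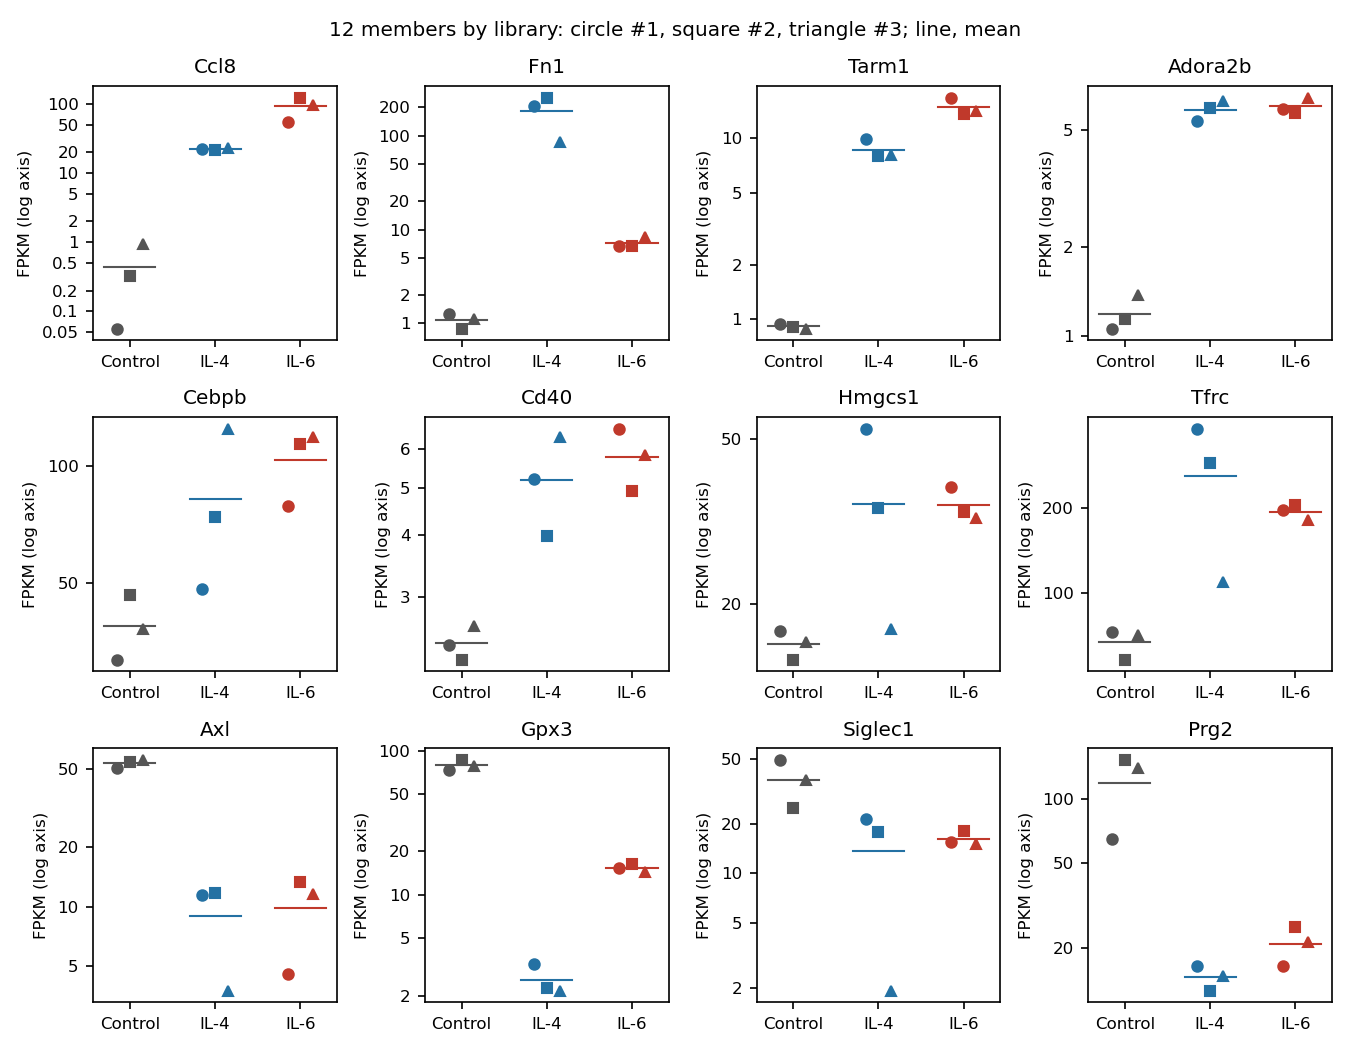
Levels of 12 genes by library (FPKM, log axes), with circles, squares and triangles for libraries #1, #2 and #3 and a line at each mean. Cd40 and Adora2b show overlapping IL-4 and IL-6 libraries above the controls, Fn1 and Gpx3 show 3 separate groups, and IL-4 #3 lies nearest to the controls for Hmgcs1 and Tfrc.

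Of the 35 tested genes of the transcription factor list, 5 were higher with both cytokines, namely Cebpb, Fos, Nfil3, Klf4 and the less abundant Fosl1, and 1 was lower. The shares over all genes tested were 0.998% and 1.04%. Nfil3, a bZIP factor, read 11.0, 10.8 and 8.96 FPKM in the controls, 37.3, 42.4 and 44.7 under IL-4, and 32.6, 37.2 and 40.2 under IL-6. Fos, part of AP-1, went from 15 ± 0.874 to 35.6 ± 6.69 and 42.5 ± 12.4. Cebpb, the C/EBP factor of Mϕ activation, read 31.6, 46.5 and 37.9 in the controls, 48.1, 73.6 and 125 under IL-4 and 78.7, 114 and 119 under IL-6, so its lowest IL-4 library lay just above the highest control. Klf4 differed between the cytokines, at 18.9 ± 7.25 under IL-4 and 2.46 ± 0.334 under IL-6 over 0.897 ± 0.279 in the controls (-2.83 ± 0.31, limma adjusted p = 0.00027). Bhlhe41 was the lower one, at 11.3 ± 0.419 in the controls, 2.86 ± 0.531 under IL-4 and 5.66 ± 0.449 under IL-6.

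Signalling genes included Pim1, a kinase induced by Stat factors, at 17.6, 16.7 and 17.9 FPKM in the controls, 59.1, 62.3 and 43.6 under IL-4 and 45.8, 40.5 and 40.7 under IL-6. Spred1 and Spred2, which restrain Ras signalling, and Etv5, a factor downstream of ERK, were higher by 2.43-fold, 3.31-fold and 2.74-fold under IL-4 and 2.71-fold, 2.22-fold and 2.30-fold under IL-6. None of the 4 was called different between the cytokines. Rbpj, the DNA-binding factor of the Notch pathway, lay near the threshold of the rule, at 4.68 ± 0.722 in the controls, 9.5 ± 1.79 under IL-4 and 9.86 ± 0.572 under IL-6.

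Of 15 tested genes of purine signalling, 2 were higher and 1 lower, beside 0.998% and 1.04% of all genes tested. Adora2b, an adenosine receptor, read 1.06, 1.14 and 1.37 FPKM in the controls, 5.36, 5.94 and 6.26 under IL-4 and 5.89, 5.71 and 6.44 under IL-6. The cytokine libraries overlapped, and the difference was 0.04 ± 0.14 on the log2 scale (limma adjusted p = 0.84). P2ry1, an ADP receptor, was higher by 5.19-fold under IL-4 and 2.13-fold under IL-6 (-1.27 ± 0.18, limma adjusted p = 0.0011). Entpd1 (CD39), which removes phosphates from extracellular ATP and ADP, was lower, at 76.3, 59.4 and 64.9 in the controls, 47.0, 33.0 and 16.4 under IL-4 and 19.7, 20.7 and 21.8 under IL-6.

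Of the sterol and fatty acid synthesis list, 6 of 26 genes tested were higher, among them Scd2, Mvd, Hmgcs1, Sqle and Fdft1. Over all genes tested, 0.998% were higher. The number was the largest of any list, next to 5 of 24 IL-4-responsive genes and 5 of 35 transcription factors. The lists differ in size and were written with earlier results known, so nothing is read from this rank. Hmgcs1, which makes HMG-CoA for the mevalonate pathway, read 17.2, 14.6 and 16.1 FPKM in the controls, 53.0, 34.1 and 17.4 under IL-4 and 38.2, 33.4 and 32.2 under IL-6. Its lowest IL-4 library, IL-4 #3, was barely above the highest control. Scd2, a fatty acid desaturase, read 9.88, 9.06 and 9.51 in the controls, 150, 114 and 39.1 under IL-4 and 52.1, 46.8 and 37 under IL-6. Mvd, which makes isopentenyl pyrophosphate, had the narrowest IL-4 spread relative to its mean of these 5, at 15.9 ± 1.69 in the controls, 43.9 ± 6.31 under IL-4 and 38.5 ± 2.69 under IL-6.

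Over the whole list of 26, all 26 log2 differences from control were above 0 under IL-4 (median 0.99, beside -0.20 over all genes) and 25 under IL-6 (median 0.92, beside -0.004). Called higher by limma were 11 under IL-4 (of all genes 5.02% were called higher and 8.89% lower) and 6 under IL-6 (3.49% and 1.89%), in the contrasts that also chose the 6 genes, so nothing is read from these counts. Between the cytokines, 2 of the 26 were called, both lower under IL-6: Scd1 and Dhcr7, neither of them among the 262, and named here after their values were seen. For the 5 shared genes named the limma adjusted p in that comparison, in which 20.4% of all genes were called, ran from 0.12 (Scd2) to 0.78 (Hmgcs1). IL-4 #3, the library that stands apart from the other IL-4 libraries, was the lowest of them for Scd2, Hmgcs1 and Sqle. In IL-4 #1 the 5 genes were 2.85-fold (Fdft1) to 15.9-fold (Scd2) above control. The upstream bases of Hmgcs1, at chr13:119690101-119690350 (plus strand, GRCm38.p6, RefSeq), are shown because they hold a match to the sterol element letters TCACNCCAC, in capitals, which were added to the search after the data were seen and stand in 1.16% of tested genes' promoters.
Hmgcs1: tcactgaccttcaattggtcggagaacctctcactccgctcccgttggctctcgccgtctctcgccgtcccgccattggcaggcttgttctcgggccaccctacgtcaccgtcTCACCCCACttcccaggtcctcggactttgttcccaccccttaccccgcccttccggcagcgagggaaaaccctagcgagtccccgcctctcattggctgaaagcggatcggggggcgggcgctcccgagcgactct

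**Figure D4:**
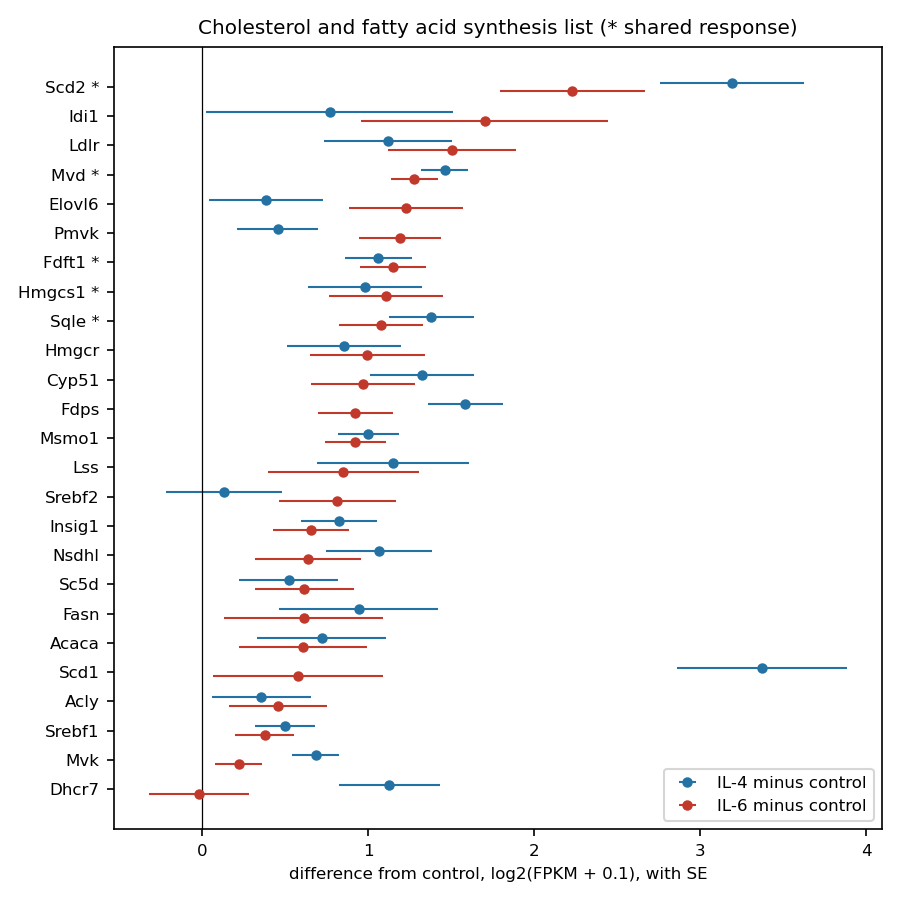
Difference from control on log2(FPKM + 0.1), with its SE, for 25 of the 26 genes of cholesterol and fatty acid synthesis, IL-4 in blue and IL-6 in red, with a star on 5 genes of the shared response. All 25 blue points and 24 red points lie right of 0.

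Of arginine and amino acid metabolism, Ass1, which joins citrulline and aspartate on the way back to arginine, read 2.03, 1.85 and 2.08 FPKM in the controls, 9.78, 6.88 and 5.25 under IL-4 and 12.7, 11.1 and 11.5 under IL-6. Slc7a11, the cystine-glutamate exchanger, was higher by 2.47-fold under IL-4 and 5.16-fold under IL-6 (IL-6 minus IL-4 1.06 ± 0.30, limma adjusted p = 0.029). Slc2a1, the glucose transporter GLUT1, was the only gene of the 22 glycolysis genes tested that met the rule, at 6.50, 6.90 and 8.52 in the controls, 18.4, 20.3 and 16.2 under IL-4 and 20.6, 21.1 and 25.2 under IL-6. Tfrc, the transferrin receptor that brings iron in, read 72.8, 58.2 and 71.1 in the controls, 383, 290 and 109 under IL-4 and 198, 206 and 181 under IL-6. Slc40a1 (ferroportin), which lets iron out, was lower, at 159, 117 and 126 in the controls, 17.5, 9.51 and 4.33 under IL-4 and 44.3, 44.8 and 44.3 under IL-6. The iron importer and the iron exporter thus lay on opposite sides of control with both cytokines. Tfrc and Slc40a1 were chosen for description after their values were seen.

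Among the lower genes, Axl, a receptor for apoptotic cells, read 50.8, 54.1 and 55.9 FPKM in the controls, 11.6, 11.8 and 3.75 under IL-4 and 4.57, 13.4 and 11.7 under IL-6. It was 5.94-fold lower under IL-4 and 5.42-fold lower under IL-6, and the cytokines overlapped. In IL-4 #1 Axl stood at 0.216 of the control mean. Gpx3, a secreted glutathione peroxidase, read 73.6, 86.6 and 77.6 in the controls, 3.31, 2.26 and 2.16 under IL-4 and 15.3, 16.3 and 14.3 under IL-6, 3 groups with no overlap (IL-6 minus IL-4 2.55 ± 0.17, limma adjusted p = 1.9e-05). Igfbp4, a binding protein for insulin-like growth factors, had the same order, at 48.2 ± 4.85, 2.05 ± 0.177 and 8.99 ± 1.55 in control, IL-4 and IL-6. Tox2, an HMG-box factor, read 1.93, 1.69 and 2.04 in the controls, 0.0602 to 0.126 under IL-4 and 0.059 to 0.153 under IL-6.

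Other lower genes of Mϕ surfaces and sensors were Fcgrt, the neonatal Fc receptor (165 ± 29.3 in control, 36.3 ± 10.3 under IL-4, 62.3 ± 13.6 under IL-6), and Tlr7, the endosomal sensor of single-stranded RNA (65 ± 14, 22.8 ± 10.6 and 32.1 ± 0.786). Tlr7 was just inside the threshold under IL-6, at 2.03-fold lower. Havcr2 (Tim-3) read 9.67, 8.37 and 8.58 in the controls, 4.74, 4.03 and 2.66 under IL-4 and 4.00, 3.77 and 3.05 under IL-6, with a difference between cytokines of -0.05 ± 0.22 (limma adjusted p = 0.87). Adam33, a membrane metalloprotease, Samd4, an RNA-binding translational repressor, and Enho, a small secreted peptide, were lower by 5.59-fold, 7.32-fold and 9.10-fold under IL-4 and 6.45-fold, 5.05-fold and 5.54-fold under IL-6. Angptl4, an inhibitor of lipoprotein lipase, was lower by 2.54-fold and 2.77-fold.

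Some granule genes of eosinophils were lower, while other eosinophil-associated genes were higher or did not meet the rule. Prg2, the major basic protein, read 65.1, 154 and 141 FPKM in the controls, 16.4, 12.5 and 14.7 under IL-4 and 16.4, 25.0 and 21.2 under IL-6. Its neighbour Prg3 and the granule genes Ear1, Ear6 and Epx were lower as well, with control means of 5.23, 5.57, 3.63 and 1.13 and treated means of at most 1.39; Prg3, Ear1 and Ear6 are not on the eosinophil marker list and were named after their values were seen. In contrast, the eosinophil-associated ribonuclease Rnase2a was among the higher genes (1330 to 1733 FPKM under IL-4, 1.37 to 2.17 under IL-6, 0.496 to 0.706 in the controls). Its relative Ear2, outside the 262, read 6.02 to 12.6 in the controls, 537 to 865 under IL-4 and 3.51 to 5.24 under IL-6. Of the 6 eosinophil markers, 2 (Prg2 and Epx) met the rule as lower genes, beside 1.04% of all genes tested. The summed level of all 6 was 70.3 to 163 in the controls, 16.8 to 22.2 under IL-4 and 19.1 to 30.4 under IL-6. Prg2, which the rule chose as lower, makes up most of this sum, so its fall repeats the choice. Ccr3 was lower under IL-4 (0.544 to 0.733) but overlapped the controls (2.56 to 5.07) under IL-6 (1.31 to 3.73). Il5ra, at most 0.176 in every library, was lower only under IL-4. Alox15 was lower with both, at 0.2219 to 0.3815 against 0.6115 to 0.7084. Siglecf, which was not lower under IL-4, read 1.28 to 1.40 in the controls, 1.41 to 4.03 under IL-4 and 0.878 to 1.07 under IL-6. Fewer eosinophils and less RNA per cell cannot be told apart in bulk samples. The Ear genes, like the Defa, Stfa, Gbp and Lyz genes named here, belong to families of near-identical copies, so how fragments were divided among copies is uncertain.

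Neighbouring genes of the same direction were found within 100 kb for 18 of the 128 higher genes and 21 of the 133 lower genes with a position. The share over all genes tested was not counted, so nothing is read from these numbers. Higher neighbours included Ccl7, Ccl8 and Ccl12, Tnfrsf26 and Tnfrsf23, and Gbp6 and Gbp11. Lower ones included Prg2 and Prg3, the intestinal genes Reg3b and Reg3g and Defa24 and Defa17, and overlapping gene models such as Gm22655 and Anapc15. The 262 genes are 2.04% of all genes tested, a share at which each list named next would hold fewer than 1 gene. Lists with no gene in the shared response included MHC class II presentation (14 genes tested), type I interferon-stimulated genes (22), DNA replication and mitosis (28), lysosomal hydrolases (23) and cytokine receptors (27). Interferon-induced genes outside that list did meet the rule, Gbp6 and Gbp11 as higher genes and Ifit3b as a lower one.

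Between the cytokines, 78 of the 262 genes were called different (29.8%, beside 20.4% of all genes tested) by limma at an adjusted p under 0.05 and at least 2-fold. Since the rule used the same IL-4 and IL-6 values, nothing is read from the larger share. Of the 50 called higher genes, 34 were higher under IL-4 and 16 under IL-6, and of the 28 called lower genes, 25 were less reduced under IL-6 and 3 less reduced under IL-4. Without IL-4 #1, so that the IL-4 and IL-6 libraries are of 1 set, 51 higher and 37 lower genes were called. In 19 of the 50 and 15 of the 28 the mean with 1 of the cytokines was under 0.5 FPKM. The remaining 184 genes were not called, which does not show that the cytokines acted alike on them.

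Among genes with a mean of at least 5 FPKM, the smallest differences were those of Rnf144b, Havcr2, Rbpj, Syngr1 and Ero1l. Rnf144b, an E3 ubiquitin ligase, read 17.8, 14.6 and 16.7 FPKM in the controls, 5.84, 5.71 and 3.03 under IL-4 and 3.51, 5.67 and 5.03 under IL-6. Ero1l, an oxidase of protein folding, was 2.13-fold and 2.23-fold higher, and Syngr1, a vesicle protein, 2.16-fold and 2.36-fold lower. The SE of these 5 differences ran from 0.17 to 0.28 on the log2 scale.

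**Figure D5:**
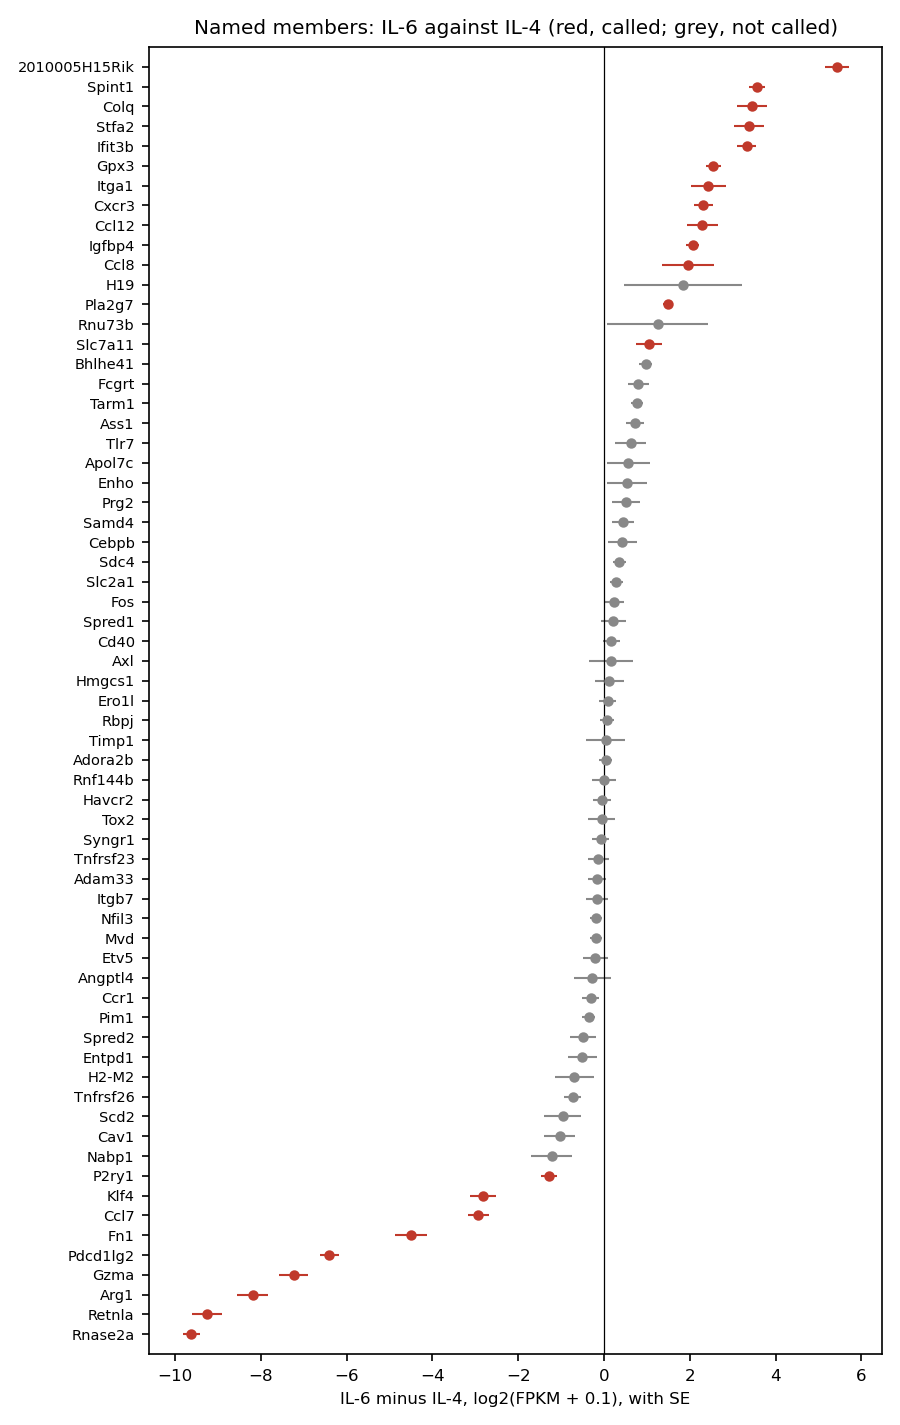
IL-6 minus IL-4 on log2(FPKM + 0.1), with its SE, for genes named by the rule, in order; red marks called genes. Retnla and Rnase2a stand near -9, the genes from Rnf144b to Adora2b near 0, and 2010005H15Rik above 5.

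Just inside the 2-fold rule stood Pla2g7 (2.01-fold), Nabp1 (2.02-fold) and Rbpj (2.03-fold) among higher genes and Bhlhe41 (2.00-fold), Tlr7 (2.03-fold) and Rnu73b (2.03-fold) among lower ones, each by its smaller change. Just outside, by the size of the smaller log2 change, stood Me1 (0.999), Ripor3 (0.998) and Lipg (0.994), and on the lower side Gm13391 (0.997), Por (0.993) and Ivns1abp (0.99). Genes with no overlap but a smaller change numbered 295 higher and 974 lower. The median log2 difference from control over all genes tested was -0.197 for IL-4 and -0.004 for IL-6. Nothing is read from the excess of lower genes, and the part of library scale in it was not tested. When every treated library had to be 2-fold beyond the control of the same number, 62 of the higher and 48 of the lower genes remained. IL-4 #3 was the treated library nearest to the controls for 39 of the 128 higher genes, and IL-4 #1 for 46 of the 134 lower ones.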

How the data were processed

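RNA-seq of 9 libraries was used. Per the labels and the study's methods, the authors aligned reads to GRCm38 with STAR 2.4.2a and made the deposited FPKM with Cufflinks 2.2.1. The methods name GENCODE M5 as the annotation, while of the 53379 genes deposited, 50604 (94.8%) matched GENCODE M21 with version. The difference was not resolved. For these genes FPKM times exon length gave whole fragments in 141431 of 141431 values under 1000 fragments (within 0.05); 24 of the 262 genes have no fragment number. Differences were fitted with limma 3.58.1 (R 4.3.3, trend, robust) on log2(FPKM + 0.1), 3 groups in one model, 12824 genes, Benjamini-Hochberg over all. The p rests on the spread between libraries within groups, pooled over the 3 groups and moderated across genes. A wide IL-4 group therefore widens the SE of every contrast of that gene. Fold changes are ratios of mean FPKM unless a log2 scale is named. The fit was tested on simulated data, with bounds set after a first run had been seen. Members and gene lists were chosen with earlier results of these data known. Library sets were to be split at a summed intestinal FPKM of 1, but with Lyz1 in the sum every library passed, so Lyz1 was left out after its values were seen. The design text names 3 mice and the table numbers its columns alike in each group, so the numbers were read as mice, which no source states outright; deviations from group means correlated between -0.41 and 0.52 within a number, and 5 of 9 libraries correlated best with their own number. Genes were named by size of the smaller change, by list (up to 4), by the difference between cytokines and by nearness to the threshold; others are described as chosen later. Results for some genes are not reported here.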

Additional observations from a re-analysis of the deposited data

Results flagged for a closer look

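Genes of the shared response whose change from control differed most between the cytokines, by the limma contrast of IL-6 with IL-4 on log2(FPKM + 0.1), were these. Rnase2a, an eosinophil-associated ribonuclease, differed by -9.62, with 1330 to 1733 FPKM with IL-4, 1.37 to 2.17 with IL-6 and 0.496 to 0.706 in the controls. Retnla differed by -9.25, Arg1 by -8.19 and Pdcd1lg2 by -6.41. Gzma, a granzyme, differed by -7.24, from 953, 611 and 1609 fragments with IL-4 to 1, 4 and 4 with IL-6 and 1, 0 and 0 in the controls, so its place among the shared genes rests on a few fragments. Gzmb had 2, 2 and 5 fragments with IL-6 and none in the controls. The summed level of the 7 NK cell markers, which include both granzymes, was 36.0 to 52.7 FPKM with IL-4 and at most 0.413 elsewhere. Most of that sum is the granzymes themselves. Of the others, Eomes (0.368 to 0.859 FPKM with IL-4, at most 0.0549 elsewhere), Prf1 (0.427 to 1.12, at most 0.0665 elsewhere) and Klra8 (0.252 to 0.489, listed at 0 elsewhere) were also higher in the 3 IL-4 libraries. Klrb1c was higher there too, at 0.123 to 0.346 FPKM with IL-4 and at most 0.0963 elsewhere. Ncr1 overlapped, at 0.0488 to 0.247 with IL-4 and 0.0185 to 0.0744 elsewhere. The part of NK cells in these values was not tested.

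In the other direction, 2010005H15Rik differed by 5.43, with 188, 190 and 124 fragments with IL-6, 2, 1 and 3 with IL-4 and none in the controls. Spint1, an inhibitor of serine proteases, differed by 3.57 (5.88 to 7.93 FPKM with IL-6, 0.465 to 0.518 with IL-4, 0.114 to 0.133 in the controls). Colq differed by 3.45 and Stfa2, a stefin, by 3.39. Ifit3b, an interferon-induced gene, was lower than control with both cytokines and differed by 3.32, with 2.96 to 3.62 FPKM in the controls, 0.0495 to 0.102 with IL-4 and 1.40 to 1.78 with IL-6.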

How the results depend on the processing

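The number of genes in the shared response moved with its rule. Without the level filter 332 genes were higher and 416 lower, at a mean of 5 FPKM 53 and 35, at 1.5-fold 257 and 316, and at 3-fold 58 and 53. With IL-4 #1 as the only IL-4 library, 196 were higher. Libraries were also paired by their number, read as a mouse number. Under this pairing 62 higher and 48 lower genes met the rule. With the number as a block, 50 of the 128 higher and 30 of the 134 lower genes were called between IL-6 and IL-4, beside 50 and 28 without it. Leaving out 1 library at a time gave 124 to 175 higher and 137 to 174 lower genes. After median-ratio rescaling 155 genes were higher and 117 lower; 128 of the 128 higher and 117 of the 134 lower genes were kept, after quantile normalization 117 and 110, and after removal of length and GC trends 114 and 109.

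Between IL-6 and IL-4, the called higher and lower genes numbered 17 and 9 at a mean of 5 FPKM, where only 53 and 35 of them were fitted, and the lower genes 18 with a pseudocount of 1. Leaving out 1 library gave 41 to 51 and 23 to 37. Of 1304 values of single named genes under the alternatives, 1266 kept their direction and side of the threshold, 19 lost the call and 19 gained it.

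Over all genes, calls for IL-4 against control (1784) came to 847 at 5 FPKM, 1111 with the library set as a term and 3186 by adjusted p alone. For IL-6 against control (690) they were 306, 187 and 1077, and for the mean of both (728) 298, 231 and 1475, with 448 at a pseudocount of 1. For IL-6 against IL-4 (2613) they were 1219 at 5 FPKM and 4375 by adjusted p alone. Leaving out 1 library gave 394 to 1009 for IL-6 (452 without Control #2, 394 without Control #3, 415 without IL-6 #2, 398 without IL-6 #3) and 471 to 933 for the mean of both (471 without Control #2, 477 without Control #3). The share of calls that were higher went from 36.1% to 48.83% (median-ratio) and 49.25% (quantile) for IL-4, and from 66.51% to 54.55% and 50.88% for IL-6 against IL-4. The median of all genes stood at -0.197 for IL-4 and 0.217 for IL-6 against IL-4. The cause of these shifts was not tested.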
